A study of Homo sapiens with 15 samples.

Results

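STAT proteins carry signals from cytokine receptors to the nucleus. Janus kinases (JAKs) at the receptor phosphorylate them, the phosphorylated STATs pair up, enter the nucleus and bind DNA, and among the genes they switch on are SOCS1, SOCS3 and CISH, whose proteins bind the receptor or the kinase and turn the signal down. In monocytes this circuit carries the interferon response and the response to interleukins such as IL-6, IL-10 and IL-12. The RNA of 9 genes of this circuit was followed in THP-1 cells exposed to bacterial extracellular vesicles (BEVs). They are the 6 transcription factor genes STAT2, STAT3, STAT4, STAT5A, STAT5B and STAT6 and the 3 inhibitor genes SOCS1, SOCS3 and CISH. They were taken from the combined count table by gene symbol, 9 of the 60286 genes listed, and all 9 were among the 17198 genes with enough counts to be tested.

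THP-1 is a single human monocytic leukaemia line, and its 15 libraries formed 5 groups of 3. Non-stimulated cells received PBS and carry the label NC. For the *E. coli* vesicles the dose was 1 μg/mL, with ultracentrifugation (UC) as the isolation method in group EUC and the ϵ-poly-L-lysine method (PL) in group EPL. For the *S. aureus* vesicles it was 10 μg/mL, in groups SUC and SPL likewise. Species and dose therefore changed together and cannot be told apart. Per the study's methods, cells were exposed for 6 h, whereas the labels read Day 0. All groups carry the genotype label WT, and doses are protein concentrations. Nothing in the labels says whether the 3 libraries of a group came from separate cultures, so p-values measure the spread between these libraries, which may be technical.

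The libraries held 14399421 to 16637345 counts, and no library was a copy of another. When clustered into 3 sets by their log2 levels, the PBS libraries formed 1 set, and EUC replicates 2 and 3, EPL replicate 1 and SUC replicate 3 stood apart from the other 8 stimulated libraries. Results that moved without those 4 libraries are given with and without them, some by effect size only. Without them EUC holds replicate 1 alone, EPL replicates 2 and 3, and SUC replicates 1 and 2. Of 8 monocytic markers all 8 had a median above 1 CPM (counts per library scaled to one size), and their sum was 1011 to 1032 CPM with PBS and 1480 to 2005 CPM after stimulation. SPI1, the master factor of myeloid cells, made up most of that rise, at a mean of 471 CPM with PBS and 896 to 1388 CPM after stimulation. CSF1R and CD14 also lay above their PBS mean in every stimulated library. CD33 fell from a mean of 82.8 CPM with PBS to 47.9 to 67.2 CPM, and MPO from 10.2 to 3.07 to 5.50 CPM. LYZ, ITGAM and FCGR1A lay on both sides of their PBS mean. None of 4 T cell markers, 3 epithelial markers or 3 erythroid markers had a median above 1 CPM. HBB, HBA1, CD3D and KRT19 had no count in any library. Of 4 fibroblast markers, COL1A1 and DCN were above that level, and their list summed to 0.640 to 0.941 CPM with PBS and 2.12 to 7.02 CPM after stimulation. The part of these shifts in the results was not tested. In bulk RNA, fewer cells of a kind and less RNA per cell cannot be told apart.

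After 6 h the circuit had split. STAT4, STAT5A and STAT2 rose several-fold or more in all 4 stimulated groups, while STAT3, STAT5B and STAT6 lay within 1.34-fold of PBS. Among the inhibitors SOCS3 rose strongly, SOCS1 rose less from a low level, and CISH fell. A gene was called differentially expressed (DEG) where its adjusted p in edgeR's quasi-likelihood test (Benjamini-Hochberg, over all genes tested) reached 0.01 or less and it changed by 1 or more on the log2 scale. By that rule 6 of the 9 genes were DEGs in EUC, where 15.2% of all genes tested were. In EPL 6 of the 9 were DEGs against 14.5% of all genes, in SUC 5 against 9.88%, and in SPL 6 against 11.5%. CISH was the 1 lower each time, where 5.75% of all genes were lower in EUC and 5.15% in EPL, and 3.06% in SUC and 3.7% in SPL. The 5 higher in EUC stood against 9.43% of all genes, the 5 in EPL against 9.38%, the 4 in SUC against 6.82% and the 5 in SPL against 7.76%. STAT2, STAT4, STAT5A and SOCS3 were higher in all 4 comparisons, as were 6.33% of all genes, and CISH was lower in all 4, as were 2.41%. The median log2 fold change of the 9 genes was 1.44 in EUC and 1.28 in EPL, and 0.79 in SUC and 1.06 in SPL, against medians of all genes within 0.01 of 0. All 4 comparisons share the same 3 PBS libraries, so they are not separate evidence of a direction.

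**Figure D1:**
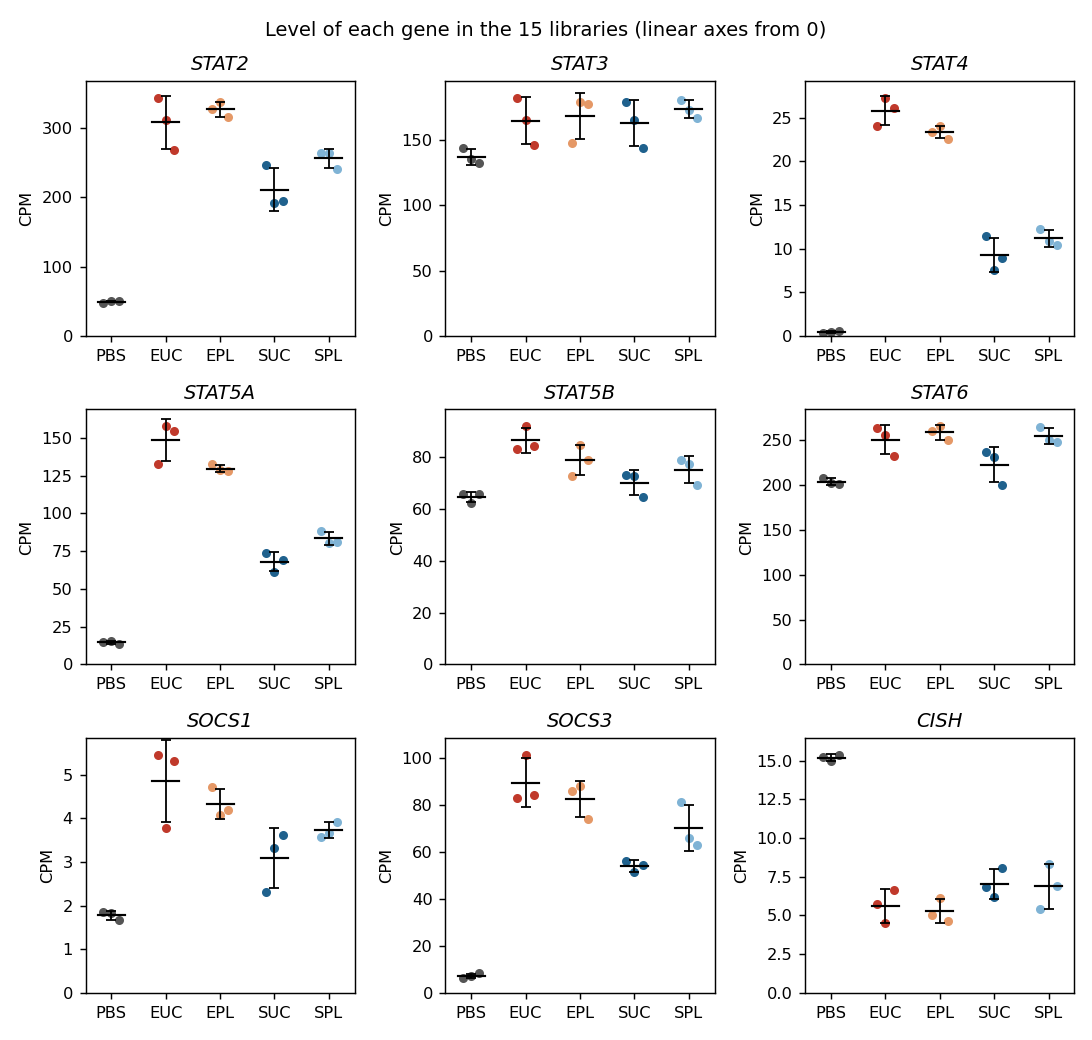
CPM of each of the 9 genes (vertical axis, linear from 0) in the 15 libraries by group, with 1 point per library and the mean ± SD of 3 libraries as black bars. STAT2, STAT4, STAT5A and SOCS3 lie above the PBS libraries in all 12 stimulated libraries, CISH lies below them in all 12, and STAT5B and STAT6 overlap with PBS in at least 1 group.

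STAT4 showed the largest change of the 9. It is best known as the STAT of the IL-12 receptor, for which it drives interferon-γ production in T and NK cells, and it is also induced in activated monocytes. The gene (ENSG00000138378) lies on the minus strand of chr2:191029576-191151596 of hg38. Its level was 0.384, 0.471 and 0.537 CPM in the 3 PBS libraries, from 6, 8 and 9 counts. In EUC it was 24.0, 27.3 and 26.1 CPM, and in EPL 23.4, 24.0 and 22.6 CPM. In SUC it was 11.4, 7.56 and 8.98 CPM, and in SPL 12.3, 10.9 and 10.4 CPM. The 5 groups thus fell into 3 levels that did not overlap, with PBS lowest, both *S. aureus* groups in the middle and both *E. coli* groups highest, and the 2 isolation methods overlapped within each species. The log2 fold change against PBS was 5.77 ± 0.19 (SE, n = 3 per group) in EUC, which is 54.5-fold with a 95% interval of 41.0 to 72.5 (adjusted p = 2.03e-13 in edgeR). It was 5.62 ± 0.20 in EPL, 4.30 ± 0.21 in SUC and 4.56 ± 0.21 in SPL, with adjusted p of at most 4.26e-11. T cell markers, whose cells are a known source of STAT4, summed to at most 0.0624 CPM in any library. The source of the STAT4 rise was not tested.

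STAT5A and STAT5B are neighbours on chromosome 17 that encode near-identical transducers of growth factor and cytokine signals such as that of GM-CSF. STAT5A rose 4.66-fold or more in each stimulated group, while STAT5B lay within 1.34-fold of PBS. STAT5A (ENSG00000126561, chr17:42287547-42311943, plus strand) was at 15.1, 15.2 and 13.5 CPM with PBS. It was at 133, 158 and 155 CPM in EUC and at 132, 129 and 128 CPM in EPL. It was at 73.9, 61.5 and 69.1 CPM in SUC and at 88.4, 80.6 and 81.4 CPM in SPL. No group overlapped with its neighbour in the order EUC, EPL, SPL, SUC, PBS, a separation that no other of the 9 genes showed. How many of all genes showed such a separation was not counted. The lowest EUC library, at 132.5 CPM, was barely above the highest EPL library, at 132.4 CPM. Between EPL and EUC the adjusted p in edgeR was 0.947. The log2 fold change against PBS was 3.34 ± 0.10 (SE, n = 3) in EUC and 3.15 ± 0.099 in EPL, and 2.22 ± 0.097 in SUC and 2.51 ± 0.098 in SPL (adjusted p of at most 1.11e-11).

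STAT5B (ENSG00000173757, chr17:42199176-42288633, minus strand) was at 62.4 to 65.8 CPM with PBS and at 64.6 to 91.9 CPM in the 12 stimulated libraries. Every group overlapped with the next in the order EUC, EPL, SPL, SUC, PBS. Its log2 fold change was 0.42 ± 0.084 in EUC (SE, n = 3, adjusted p = 0.000657 in edgeR), the largest of its 4. In EPL it was 0.28 (adjusted p = 0.0125), in SUC 0.12 (adjusted p = 0.334) and in SPL 0.22 (adjusted p = 0.0567). Without the 4 libraries that stood apart the adjusted p became 0.000106 in EPL and 0.00360 in SPL, at log2 fold changes of 0.34 and 0.23. Per exon length (RPKM, which is CPM per kilobase of exon), the ratio of STAT5A to STAT5B turned over, from 0.430 ± 0.037 (SD, n = 3) with PBS to 3.26 ± 0.23 in EUC and 3.14 ± 0.28 in EPL, and 1.85 ± 0.22 in SUC and 2.11 ± 0.13 in SPL. The lowest stimulated library, at 1.61, was above the highest PBS library, at 0.463. The genes lie head to head and share 415 exon bases, and 5.61% of the 150-base windows of STAT5A transcripts also occur in STAT5B, so a small part of the reads of each cannot be assigned with certainty.

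STAT2 works in the complex ISGF3, together with another STAT and IRF9, and carries the type I interferon signal. The gene (ENSG00000170581) lies on the minus strand of chr12:56341597-56360203. Its level was 48.1, 50.5 and 49.9 CPM with PBS. It was 343, 311 and 268 CPM in EUC and 327, 337 and 315 CPM in EPL. It was 246, 191 and 194 CPM in SUC and 264, 264 and 240 CPM in SPL. All 12 stimulated libraries were above all 3 PBS libraries and all 6 *E. coli* libraries above all 6 *S. aureus* libraries, while EPL overlapped with EUC and SPL with SUC. Its log2 fold change was 2.63 ± 0.11 (SE, n = 3) in EUC and 2.72 ± 0.11 in EPL, and 2.09 ± 0.11 in SUC and 2.37 ± 0.11 in SPL (adjusted p of at most 8.88e-11 in edgeR). The last of these was a 5.17-fold rise.

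STAT3 carries the signals of IL-6 and IL-10 and was already well expressed with PBS. It (ENSG00000168610, chr17:42313324-42388540, minus strand) was at 144, 135 and 132 CPM with PBS. In the 12 stimulated libraries it ranged from 144.0 to 183 CPM, just above the highest PBS library at 143.8 CPM. On the log2 scale the change against PBS was 0.27 ± 0.10 in EUC and 0.30 ± 0.10 in EPL, and 0.25 ± 0.10 in SUC and 0.34 ± 0.10 in SPL. The adjusted p in edgeR was 0.0445, 0.0271, 0.0732 and 0.0147 in that order, so none passed 0.01. STAT3 was lower in the libraries that stood apart, which in EUC were at 0.854 times the level of the other EUC library, in EPL at 0.829 times and in SUC at 0.836 times. Without those 4 libraries EUC holds replicate 1 alone. The log2 fold change was then 0.41, 0.38, 0.34 and 0.35 in the same order, still below a doubling.

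STAT6, the transducer of IL-4 and IL-13, had the highest level per length of the 6 STAT genes with PBS. The gene (ENSG00000166888) lies on the minus strand of chr12:57095408-57132139. It was at 202 to 208 CPM with PBS and 200.3 to 266 CPM in the stimulated libraries, and each group overlapped with the next in the order EPL, SPL, EUC, SUC, PBS. Relative to PBS the log2 fold change was 0.30 ± 0.078 in EUC (adjusted p = 0.00553), 0.34 ± 0.078 in EPL (adjusted p = 0.00194) and 0.32 ± 0.078 in SPL (adjusted p = 0.00408). In SUC it was 0.13 ± 0.078 (adjusted p = 0.244), and 0.21 without the libraries that stood apart (adjusted p = 0.00402). These rises were at most 1.27-fold, and the adjusted p in EUC and SPL was over 0.01 without any 1 of the PBS libraries, as was that in EPL without PBS replicate 3.

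The STAT messages changed in make-up as well as in amount. The RPKM of the 6 genes summed to 53.2 ± 1.0 (SD, n = 3) with PBS, 118 ± 6.5 in EUC and 117.4 ± 3.1 in EPL, and 86.2 ± 8.0 in SUC and 99.6 ± 4.2 in SPL. STAT6 held 52.5% of that sum with PBS and 29.1% in EUC and 30.2% in EPL, and 35.5% in SUC and 35.0% in SPL. STAT2 held 10.0% with PBS and between 26.2% and 29.9% in the means of the stimulated groups. STAT5A went from 4.30% with PBS to 19.8% in EUC and 17.3% in EPL, and 12.4% in SUC and 13.1% in SPL. STAT4 held 0.190% with PBS and remained the smallest share after stimulation, at 4.76% in EUC and 2.34% in SUC. Other STAT genes are not part of these sums.

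**Figure D2:**
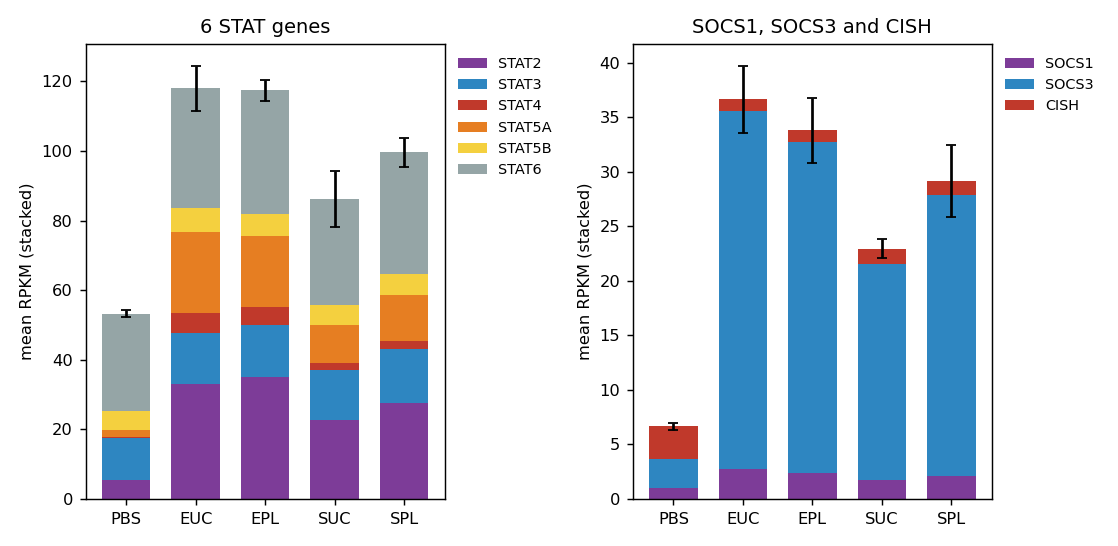
Mean RPKM per group (vertical axes, linear from 0), stacked by gene for the 6 STAT genes (left) and the 3 inhibitors (right), with the SD of the sum over 3 libraries as black bars. STAT2 and STAT5A fill most of the added height on the left, and SOCS3 nearly all of it on the right, where CISH shrinks.

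The start regions of SOCS1 and CISH are shown as examples from known targets of the STATs, and not every window is reported here. STATs bind the GAS motif TTCNNNGAA, whereas ISGF3 binds the interferon-stimulated response element (ISRE), searched here by its core of 2 GAAA boxes spaced by 2 bases. The 250 bases before the start of the GENCODE canonical transcript were read from hg38 and searched on both strands, also for the STAT6 type, with TTC and GAA spaced by 4 bases, and the NF-kappa B motif. In the sequences that follow, 5′ to 3′ along the gene's strand, capitals mark a match.
SOCS1 (chr16:11256205-11256454, minus strand) held no GAS motif, 1 ISRE core, GAAAGAGAAA, whose first base lies 113 bases before the start, and 1 NF-kappa B motif, GGGGCCTCCC, 67 bases before it.
SOCS1: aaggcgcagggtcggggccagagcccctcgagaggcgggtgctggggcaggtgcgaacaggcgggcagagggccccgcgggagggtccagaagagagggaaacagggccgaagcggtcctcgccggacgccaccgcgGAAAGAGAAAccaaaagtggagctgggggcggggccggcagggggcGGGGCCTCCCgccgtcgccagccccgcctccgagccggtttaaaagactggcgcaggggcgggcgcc
CISH (minus strand) held 4 GAS motifs, and a pair 241 and 230 bases before the start lies at chr3:50611996-50612015.
CISH far pair: TTCCTGGAAagTTCTTGGAA
The other 2, TTCTAGGAA and TTCCGGGAA, lie 129 and 112 bases before the start, in the part of the window nearest to the gene, chr3:50611775-50611907. An annotated exon of MAPKAPK3 covers the far part of the window, with the far pair in it, and the rest of that part is not shown.
CISH near part: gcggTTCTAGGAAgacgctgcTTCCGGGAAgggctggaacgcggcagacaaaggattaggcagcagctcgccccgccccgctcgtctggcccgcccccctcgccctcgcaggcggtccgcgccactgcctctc

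A GAS motif occurs in 5.67% of the same windows of 20032 protein-coding genes, an ISRE core in 2.84%, a STAT6 type in 4.17% and an NF-kappa B motif in 7.81%. As many as 4 GAS motifs occur in 3 windows, of which CISH is 1. Among the STAT genes, STAT6 held a STAT6 type motif and STAT5A an NF-kappa B motif, and the windows of STAT2, STAT3, STAT4 and STAT5B held none of the 4. No match shown shared a base with another. A match describes letters and not binding.

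SOCS3, the inhibitor of IL-6 family signals, rose most of the 3 inhibitors. The gene (ENSG00000184557) lies on the minus strand of chr17:78356778-78360077. Its level was 6.33, 7.06 and 8.29 CPM with PBS. It was 83.1, 102 and 84.5 CPM in EUC and 86.3, 88.3 and 74.1 CPM in EPL. It was 56.4, 51.6 and 54.6 CPM in SUC and 81.6, 66.3 and 63.2 CPM in SPL. SUC was the lowest stimulated group and did not overlap with SPL, whereas SPL overlapped with EPL and EPL with EUC. Against PBS it changed on the log2 scale by 3.63 ± 0.13 (SE, n = 3) in EUC and 3.52 ± 0.13 in EPL, and 2.90 ± 0.13 in SUC and 3.28 ± 0.13 in SPL (adjusted p of at most 1.99e-11 in edgeR). In EUC that was a 12.4-fold rise, with a 95% interval of 10.2 to 15.1.

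SOCS1 blocks JAKs directly and restrains interferon signals. It (ENSG00000185338, chr16:11254417-11256204, minus strand) is a gene of a single exon. Its level was 1.86, 1.82 and 1.67 CPM with PBS, from 29, 31 and 28 counts. It was 5.46, 3.78 and 5.32 CPM in EUC and 4.72, 4.08 and 4.18 CPM in EPL. It was 2.32, 3.31 and 3.63 CPM in SUC and 3.58, 3.67 and 3.93 CPM in SPL. All 12 stimulated libraries lay above the PBS libraries, with SUC replicate 1 the lowest of them. Its log2 fold change was 1.44 ± 0.20 in EUC (SE, n = 3, adjusted p = 2.00e-05), 1.28 ± 0.21 in EPL (adjusted p = 8.37e-05) and 1.06 ± 0.21 in SPL (adjusted p = 0.000704). In SUC it was 0.79 ± 0.21 (adjusted p = 0.00852), below the fold threshold of a DEG, and its adjusted p was 0.0128 with the replicate block, 0.0119 under DESeq2 and 0.0326 without the libraries that stood apart, so that it passed 0.01 in none of these. The intervals overlapped widely at this depth, and that of SUC ran from 0.34 to 1.24.

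CISH, the inhibitor best known as a target of STAT5, moved against the other 2. The gene (ENSG00000114737) lies on the minus strand of chr3:50606489-50611774. Its level was 15.2, 14.9 and 15.4 CPM with PBS. It was 5.72, 4.49 and 6.64 CPM in EUC and 5.05, 6.12 and 4.62 CPM in EPL. It was 6.83, 6.19 and 8.05 CPM in SUC and 5.43, 8.31 and 6.89 CPM in SPL. All 12 stimulated libraries were below all 3 PBS libraries, and the 4 stimulated groups overlapped with their neighbours. On the log2 scale the change against PBS was −1.43 ± 0.17 in EUC (SE, n = 3, adjusted p = 2.54e-06 in edgeR), −1.53 ± 0.17 in EPL (adjusted p = 1.36e-06), −1.11 ± 0.17 in SUC (adjusted p = 5.23e-05) and −1.14 ± 0.17 in SPL (adjusted p = 3.56e-05). Without SPL replicate 1, the lowest SPL library, the value in SPL was −0.98, short of the fold threshold. CISH overlaps MAPKAPK3 on the opposite strand over 218 exon bases, and the strand setting of the counting is not given in the sources used here.

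Within each library the balance of the inhibitors turned over. Per length, the ratio of SOCS3 to CISH was 0.880 ± 0.11 (SD, n = 3) with PBS and 30.8 ± 9.8 in EUC and 29.3 ± 2.5 in EPL, and 14.4 ± 1.6 in SUC and 19.8 ± 7.0 in SPL. The ratio of SOCS3 to SOCS1 rose from 2.67 ± 0.52 with PBS to a mean between 11.97 and 12.6 in each stimulated group, and these groups overlapped. CISH held 45.3% of the RPKM of the 3 inhibitors with PBS and 3.07% in EUC and 3.08% in EPL, and 6.04% in SUC and 4.75% in SPL. SOCS3 held 39.7% with PBS and 86.4% to 89.7% in the means of the stimulated groups.

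**Figure D3:**
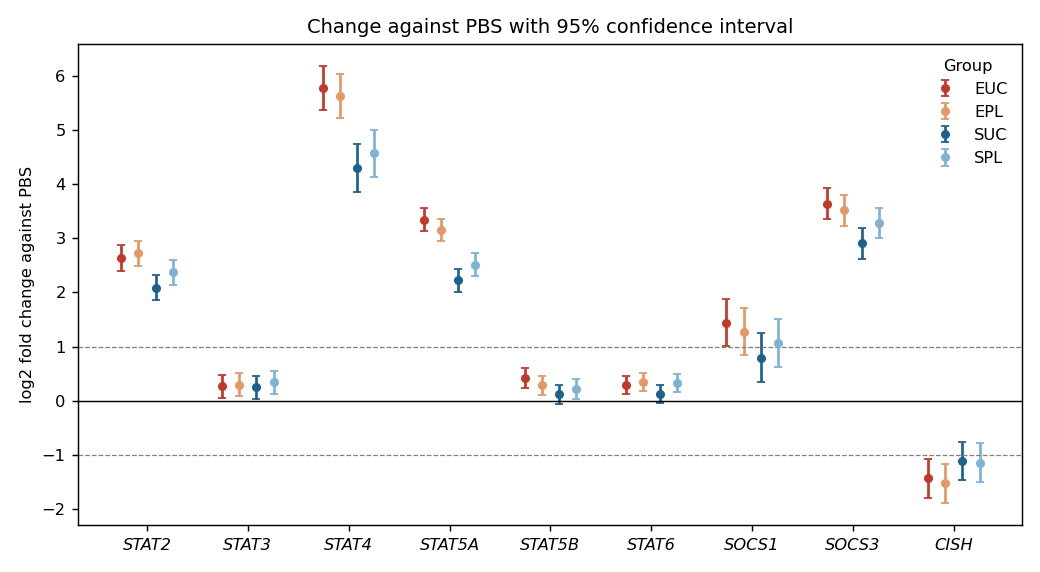
Log2 fold change of each gene against PBS (vertical axis) in EUC, EPL, SUC and SPL, with 95% confidence intervals from the fit of all 15 libraries and dashed lines at the fold threshold. STAT4 is highest, at 4.30 to 5.77, STAT3, STAT5B and STAT6 lie between 0.12 and 0.42, and CISH lies between −1.53 and −1.11.

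Of the 9 genes, 6 were higher in all 12 stimulated libraries than in any PBS library, namely SOCS1, SOCS3, STAT2, STAT3, STAT4 and STAT5A, where 17.5% of all genes tested were. CISH was the 1 gene lower in all 12, where 16.1% of all genes were. At an adjusted p of at most 0.01 of any fold, 8 of 9 were called in EUC and 7 in EPL, and 6 in SUC and 7 in SPL, against 30.5%, 29.2%, 21.5% and 23.9% of all genes. Without the 4 libraries that stood apart EUC held replicate 1 alone, so those counts are not given for that fit.

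The comparison of both *E. coli* groups with both *S. aureus* groups asked whether the response depended on the vesicles' origin, at doses that differed. STAT4 was the 1 DEG among the 9, where 0.686% of all genes were, at a log2 difference of 1.27 ± 0.090 (SE, 6 libraries against 6, adjusted p = 3.88e-07 in edgeR). At an adjusted p of at most 0.01 of any fold, 4 of the 9 were higher in the *E. coli* groups, where 2.87% of all genes were, and none was lower, where 1% were. Beside STAT4 they were STAT5A at 0.88 ± 0.063 (adjusted p = 3.88e-07), SOCS3 at 0.48 ± 0.081 (adjusted p = 0.000994) and STAT2 at 0.45 ± 0.072 (adjusted p = 0.000649). For STAT2, STAT4 and STAT5A the 6 *E. coli* libraries lay above all 6 *S. aureus* libraries, as they did for 3.05% of all genes.

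The other members did not pass that threshold. SOCS1 differed by 0.43 with a 95% interval of 0.14 to 0.72 (adjusted p = 0.0732), and CISH by −0.35 with an interval of −0.62 to −0.09 (adjusted p = 0.127). STAT5B differed by 0.18 (adjusted p = 0.0824) and STAT6 by 0.10 (adjusted p = 0.426). STAT3 differed by −0.01 with an interval of −0.16 to 0.14.

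The isolation methods were compared within each species. Between EPL and EUC no member was a DEG, nor was any of the genes tested (0%), at a smallest adjusted p of 0.947 among the members, and DESeq2 called 0 members too. At an unadjusted p under 0.05 stood 604 genes, and among the members STAT5A, which was lower in EPL by a log2 difference of −0.19 with a 95% interval of −0.38 to −0.01. Across the 9 members the intervals lay between −0.56 and 0.30. Between SPL and SUC no member was a DEG, where 0.00581% of all genes (1 gene) were. The smallest adjusted p was 0.727 with all 15 libraries in edgeR, and DESeq2 called 0 members. At an unadjusted p under 0.05 stood 1000 genes and 4 members, STAT2, STAT5A, STAT6 and SOCS3, each higher in SPL, with SOCS3 the furthest at 0.38 (95% interval 0.13 to 0.62). The intervals of the 9 members lay between −0.40 and 0.69, and with 3 libraries a group they allow differences up to those bounds. Without the 4 libraries that stood apart the log2 difference was 0.23 for STAT2, 0.30 for STAT5A, 0.12 for STAT6 and 0.38 for SOCS3. The test of whether the method acted differently in the 2 species called no member in edgeR or DESeq2 (0% of all genes in edgeR), with a smallest adjusted p of 1.00 and 3 members and 659 genes at an unadjusted p under 0.05.

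**Figure D4:**
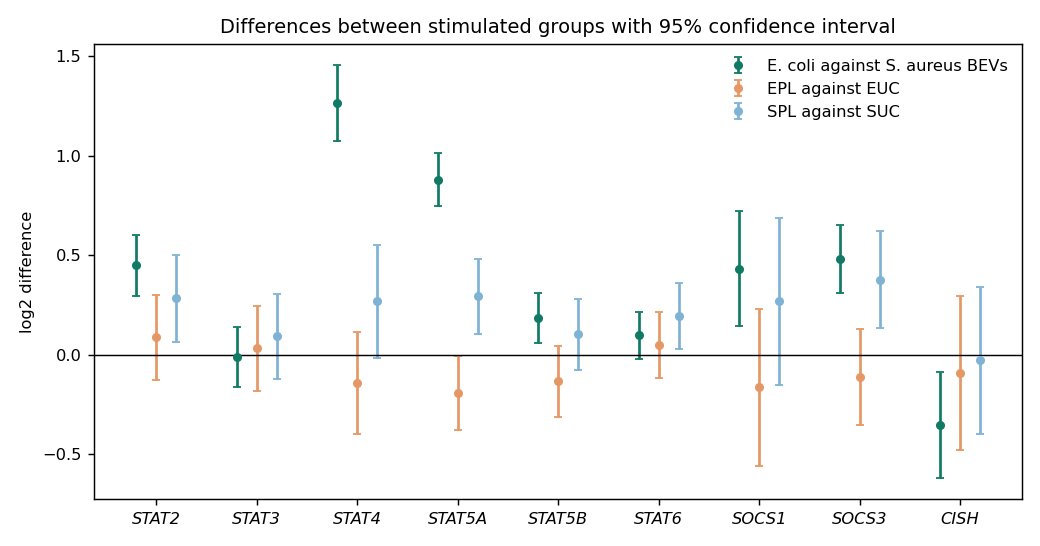
Log2 difference of each gene (vertical axis) between the *E. coli* and *S. aureus* groups (green), between EPL and EUC (orange) and between SPL and SUC (blue), with 95% confidence intervals. STAT4 and STAT5A stand out in green at 1.27 and 0.88, and every orange and blue point lies within 0.38 of 0.

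The rest of the pathway was read from gene lists, by role, beside the 6.33% of all genes tested that were higher and the 2.41% that were lower as DEGs in all 4 comparisons with PBS. Of 6 other STAT and SOCS genes, 1 was higher and 1 lower as a DEG in each of the 4 comparisons with PBS, and 4 were neither. Of 4 JAK kinases 3 had enough counts, JAK1, JAK2 and TYK2, and none was a DEG. At an adjusted p of at most 0.01 of any fold 2 were higher in EUC and 3 in EPL, and 1 in SUC and 3 in SPL. Of all genes tested 30.5%, 29.2%, 21.5% and 23.9% passed that in either direction, in the same order. Relative to PBS the log2 fold change was 0.26 to 0.38 for JAK1, 0.43 to 0.61 for JAK2 and 0.26 to 0.56 for TYK2 over the 4 comparisons. In each comparison all 3 stood at an unadjusted p under 0.05, as did 8269 (EUC), 8094 (EPL), 6945 (SUC) and 7262 (SPL) of the 17198 genes tested. DESeq2 too made 0 of the 3 kinases DEGs. Of 10 other negative regulators (PIAS proteins, tyrosine phosphatases and an adaptor), 1 was higher in all 4, SH2B3, the adaptor LNK that restrains JAK2, which went from 107 CPM with PBS to 364 (EUC), 387 (EPL), 292 (SUC) and 361 CPM (SPL).

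Receptor chains and ligands were counted next. Of 31 receptor chains 28 were tested, and 10 were higher as DEGs in EUC and 9 in EPL, and 8 in SUC and 7 in SPL, with none lower as a DEG. Of all genes tested 9.43%, 9.38%, 6.82% and 7.76% were higher as DEGs, in that order. At an adjusted p of at most 0.01 of any fold, 14 chains were higher and 4 lower in EUC, and 14 and 3 in EPL. In SUC these counts were 14 and 2, and in SPL 13 and 2. All-gene shares at that threshold, in either direction, were 30.5%, 29.2%, 21.5% and 23.9%. IL7R, the IL-7 receptor chain that signals to STAT5, rose from 1.08 CPM with PBS to 249 (EUC), 224 (EPL), 87.6 (SUC) and 124 CPM (SPL). IL10RA, the IL-10 receptor chain that signals to STAT3, was at 12.7 CPM with PBS and reached 365 (EUC), 359 (EPL), 172 (SUC) and 249 CPM (SPL). LIFR, the receptor of leukaemia inhibitory factor, rose from 0.189 CPM to between 0.975 and 2.46 CPM. Of 19 ligand genes 12 were tested. As DEGs 8 were higher in EUC and 8 in EPL, and 6 in SUC and 7 in SPL, beside the same 9.43%, 9.38%, 6.82% and 7.76% of all genes. EBI3, a shared subunit of IL-27 and IL-35, rose by log2 values of 8.47 to 9.58 over the 4 comparisons. IL12B, the p40 subunit of IL-12 and IL-23, rose by 5.38 to 8.13, and IL23A, the p19 subunit of IL-23, by 3.70 to 6.07. With PBS the means were 0.645 CPM for EBI3, 0.120 CPM for IL12B and 3.05 CPM for IL23A. The rises of EBI3 and IL12B thus start from a level near the floor.

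Known targets of each STAT were counted as well. All 18 ISGF3 targets were higher as DEGs in each of the 4 comparisons, with a list median log2 fold change of 3.87 in EUC and 3.89 in EPL, and 3.36 in SUC and 3.59 in SPL. IFIT1, which binds foreign RNA, rose by log2 values of 4.69 to 5.43, IFI44 by 4.59 to 5.25 and IFI44L by 4.54 to 5.30. At an adjusted p of at most 0.01, 12 of the 18 were higher with *E. coli* than with *S. aureus* vesicles, where 2.87% of all genes tested were. Of 14 tested targets of STAT3 and STAT5, 8 were higher in all 4 comparisons, with list medians of 1.34 in EUC and 1.17 in EPL, and 1.11 in SUC and 1.17 in SPL. In EPL 1 target was lower as a DEG, where 5.15% of all genes were. At an adjusted p of at most 0.01 of any fold, 12 were higher in EUC, EPL and SUC and 13 in SPL, and 1 was lower in each. All-gene shares at that threshold, in either direction, were 30.5%, 29.2%, 21.5% and 23.9%. BCL6, a repressor, rose by 3.61 to 3.87, BCL3, a partner of NF-kappa B, by 3.45 to 3.81, and PIM1, a kinase that favours survival, by 1.72 to 2.08. Of 8 tested targets of STAT6, 2 were higher in all 4, among them CCL24, a chemokine for eosinophils, by 3.15 to 4.74. F13A1, the A chain of coagulation factor XIII, was the 1 lower in all 4, by log2 fold changes of −2.0 to −1.56. Many of these genes are also targets of other factors such as NF-kappa B, and no list was tested against other genes.

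**Figure D5:**
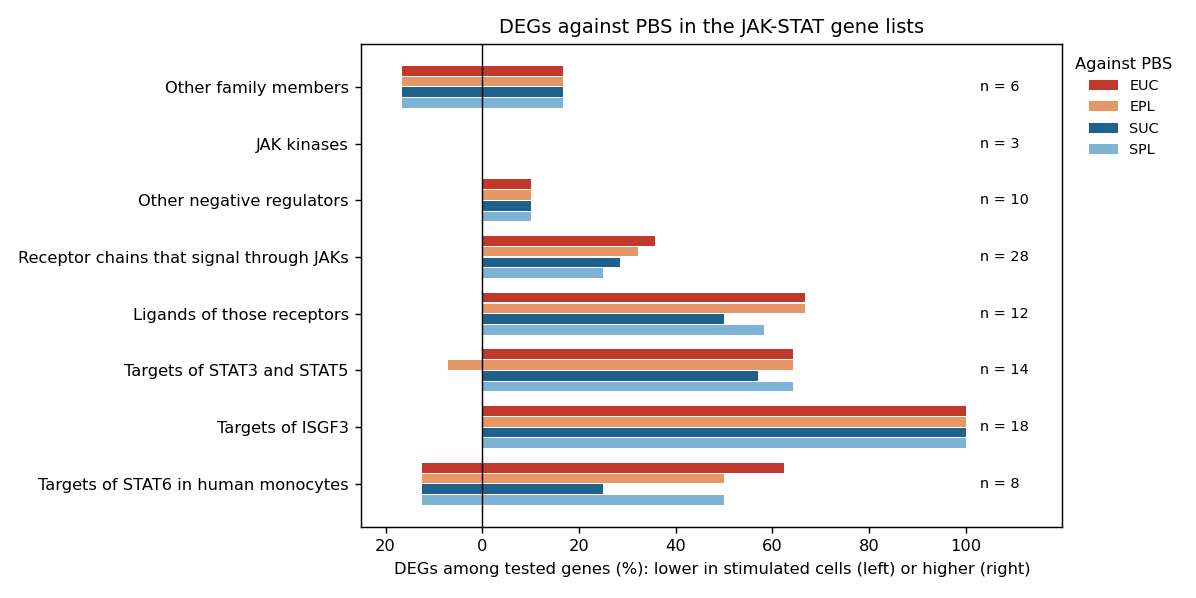
Share of the tested genes of each list (percent, horizontal axis) that were DEGs higher (right of 0) or lower (left of 0) than PBS in EUC, EPL, SUC and SPL, with the number tested at the right. All 18 ISGF3 targets were higher in each group, and no JAK kinase was a DEG.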

How the data were processed

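RNA of 15 THP-1 libraries (3 for each of 5 groups) was sequenced by the authors with a NEB kit. Per the labels the reads were mapped to hg38, and the submitters' processing notes name FastQC 0.11.5, HISAT2 2.1.0, StringTie 1.3.3b, DESeq 1.28.0 and featureCounts without their roles. Neither the annotation nor the strand setting of the counting is stated by the sources used here. The deposited table holds raw counts per gene for 60286 genes, of which 23219 had no count. Groups came from titles and treatments.

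Library sizes were scaled by TMM in edgeR 4.0.16 (R 4.3.3), and genes with low counts were dropped with filterByExpr. The remaining 17198 genes were fitted in 1 quasi-likelihood model of all 15 libraries (common biological coefficient of variation 0.118). A prior count of 2 entered only the log2 CPM used for the clustering and the correlations. Adjusted p-values (Benjamini-Hochberg) cover all genes tested. The study's thresholds defined a DEG (adjusted p no higher than 0.01, log2 change no smaller than 1 in size). Libraries held 14399421 to 16637345 counts. CPM used the scaled sizes, and RPKM the merged exon length in GENCODE v44, which may not be the authors' annotation. The script was tested on simulated data. Alternatives were DESeq2 1.42.0, its size factors in edgeR, no filter, no fold threshold, a replicate block, the compared groups alone and each library left out, and, chosen after seeing the data, leaving out the 4 libraries that stood apart together.

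The 9 genes and the lists were chosen with earlier results of these data known. From each list were named the 3 largest mean rises and falls among genes that were DEGs the same way in all 4 comparisons with PBS with a mean of at least 1 CPM. For likeness, the 3 genes with the highest Pearson r were taken for each member. JAK1, JAK2 and TYK2 were named after their values were seen. Some list genes are counted and not named, and some marker and promoter results are not reported here.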

Additional observations from a re-analysis of the deposited data

Results flagged for a closer look

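STAT4 is listed for a closer look because its level differed between the vesicles of the 2 species. The log2 difference between the 6 *E. coli* and the 6 *S. aureus* libraries was 1.27 ± 0.090 (SE), with an adjusted p of 3.88e-07 in edgeR's quasi-likelihood test, and all 6 *E. coli* libraries were higher than all 6 *S. aureus* libraries. Species and dose cannot be told apart here. The value ranged from 1.19 to 1.34 over the alternatives tried and was 1.195 without the 4 libraries that stood apart.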

How the results depend on the processing

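Of 756 values of the 9 genes against PBS under the alternatives, 755 kept their DEG call. The exception was CISH in SPL, at −0.98 without SPL replicate 1 (adjusted p = 0.000530 in edgeR). At an adjusted p of at most 0.01 of any fold 709 kept their side, and the other 47 belonged to STAT3, STAT5B, STAT6 and SOCS1. SOCS1 in SUC missed it in 15 of 21 alternatives (adjusted p = 0.0112 to 0.0480), STAT6 in EUC in 7 (0.0141 to 0.0243) and STAT6 in SPL in 6 (0.0114 to 0.0199), and STAT3 in SPL passed it in 8. Under DESeq2 8 of the 9 genes passed in EPL and SPL against 7, and 5 in SUC against 6. Without a fold threshold, calls over all genes were 5251 in EUC and 5026 in EPL, and 3697 in SUC and 4114 in SPL, against 2610, 2498, 1700 and 1972 with it. Between species they were 665 against 118, and 4 of the 9 genes against 1. Between SPL and SUC all-gene calls were 2 against 1 under DESeq2, with no filter, with the compared groups alone and without the 4 libraries that stood apart, and 1 to 2 with a library left out (2 without EUC replicate 1, EUC replicate 3 or SUC replicate 1). For method by species they were 3 under DESeq2, 4 with no filter, 4 without those 4 libraries and 0 to 1 with a library left out (1 without SUC replicate 1), against 0. The cause was not tested. Small differences that were never called changed sign. Between EPL and EUC, leaving out 1 library gave −0.00155 to 0.17 for STAT2, −0.044 to 0.12 for STAT3, −0.00376 to 0.084 for STAT6 and −0.24 to 0.046 for CISH, and leaving out the 4 gave −0.0730 for STAT2, −0.0300 for STAT3 and −0.0285 for STAT6. CISH between SPL and SUC ran from −0.19 to 0.12 and was 0.0787 without the 4, and STAT3 between species ran from −0.060 to 0.028 and was 0.0557 without the 4. With plain library totals 7 of 45 group levels moved by over 1 SD.

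Replicate numbers are shared by the groups, and of 30 same-numbered pairs of libraries 7 had a correlation of their deviations over 0.1 (−0.45 to 0.52). Their mean was 0.0095, and that of other pairs −0.0036. Between EUC and SUC the same-numbered pairs stood at 0.39, 0.050 and 0.52, and between EUC and EPL at −0.45, 0.094 and −0.34. Whether the numbers pair the samples cannot be decided from these values. With the replicate block the counts of DEGs among the 9 genes were 6 in EUC and EPL, 5 in SUC, 6 in SPL and 1 between species, and over all genes 2553, 2449, 1677, 1938 and 116, and the block changed no DEG call of the 9 genes against PBS, while SOCS1 in SUC lost its call at an adjusted p of at most 0.01 (0.0128). Depth limits STAT4 with PBS (6 to 9 counts) and SOCS1 most.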

Other observations

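The genes whose levels followed each of the 9 genes most closely are given as a description, by Pearson's r of log2 CPM over the 15 libraries, which share depth, groups and the split between PBS and stimulated cells. STAT2 was closest to DTX4 (r = 0.999), a ubiquitin ligase, then IL10RA (r = 0.998) and HERC6 (r = 0.997). STAT4 was closest to ELOVL7 (r = 0.998), which elongates fatty acids, and the third closest was NAMPT (r = 0.997), an enzyme of NAD synthesis. The third closest gene to STAT5A was MTHFD2 (r = 0.995), an enzyme of mitochondrial folate metabolism. SOCS3 was closest to CSRNP1 and ATF3 (r = 0.996 each), the latter a stress-induced transcription factor.

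The genes that changed less had looser companions. STAT6 was closest to TRIM14 (r = 0.967), STAT3 to SIK3 (r = 0.976), and the second closest to STAT5B was DNAJB6 (r = 0.908), a chaperone. SOCS1 was closest to TMEM51 (r = 0.958) and MAP1LC3B (r = 0.956), an autophagy protein. CISH was closest to SLC66A3 (r = 0.971) and ANAPC5 (r = 0.965), a subunit of the anaphase-promoting complex.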
